A study of Xenopus laevis with 2 samples.

Results

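The pou5f3 genes of Xenopus laevis stand side by side on chromosomes 8S and 8L, and the accessible sites listed in and around them before zygotic genome activation (ZGA) are described here. Every gene of the RefSeq table of assembly v10.1 whose symbol begins with pou5f3 on these chromosomes was taken, which gave 6 genes of 44456 in the table: pou5f3.3, pou5f3.2 and pou5f3.1 on 8S and the same 3 on 8L. Wild-type zygotes had received 2.3 ng of a Dam-only AID construct as mRNA, that is Dam not fused to a chromatin protein, before their first cleavage, and 500 whole embryos per replicate were taken at 4.5 h after fertilisation, when an embryo has 256 cells. The 2 replicates formed a single group, which the study describes as independent biological replicates. Control embryos without Dam were not analysed here. Accessibility was read by CATaDa, in which bacterial Dam methylates adenine in GATC motifs of open DNA, and each replicate is described by its own list of broad peaks.

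Pou5f3 proteins are POU-domain transcription factors and the amphibian relatives of mammalian Oct4. They bind octamer-like DNA, often beside a Sox partner, hold early cells in an uncommitted state, and act with Sox3 at the onset of zygotic transcription. In Xenopus, pou5f3.3, listed in the gene table under the synonym oct60, is the copy whose mRNA is stored in the egg. The pou5f3.2 gene (oct25) has some maternal mRNA and is strongly transcribed from ZGA on, while pou5f3.1 (oct91) is transcribed in the embryo. X. laevis arose by joining of 2 genomes, so most genes can have an S and an L copy, called homeologues.

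A peak is a stretch that the caller MACS marked as enriched in reads. Its fold enrichment is the ratio of reads there to the background used by the caller, and its -log10 q is the caller's measure of confidence. Whether that background came from the same library or from a control is not given in the sources used here. Replicate 1 had 325974 peaks and replicate 2 had 277551, with a median fold enrichment of 4.34 and 4.50 and a median width of 336 and 374 bp. Read counts are not part of the lists, so sequencing depth is unknown, no counting error can be given, and an absent peak cannot be read as closed DNA. Dam can mark a stretch only where it holds GATC motifs. Their number in the pou5f3 genes and around them was not analysed here, so its part in absent peaks, in cover and in the S against L differences was not tested. How reads that match several pou5f3 copies were placed is not given in the sources used here. The gene table gives no strand, so positions are counted from the low-coordinate end of each gene, and promoters were not told from the other gene ends.

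In both replicates, the same 3 genes had peaks and the same 3 had none within 1 kb. Peaks were present at pou5f3.1.S, at pou5f3.1.L and at pou5f3.3.S. No peak was listed at pou5f3.3.L, pou5f3.2.S or pou5f3.2.L. Thus the embryonically transcribed pou5f3.1 had peaks in both homeologues, the egg-stored pou5f3.3 in the S copy, and pou5f3.2 in neither. A peak within 1 kb in both replicates was found for 57.7% of the 9412 protein-coding genes of 2 to 10 kb, the size class of these genes, and for 73.2% of all 44438 genes on assembled chromosomes. No peak in either replicate was found for 24.2% of the size class and 16.9% of all genes, and a peak in a single replicate, the state of no pou5f3 gene, for 18.1% and 9.9%. With 6 genes, 3 with peaks and 3 without is a description and was not tested.

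**Figure D1:**
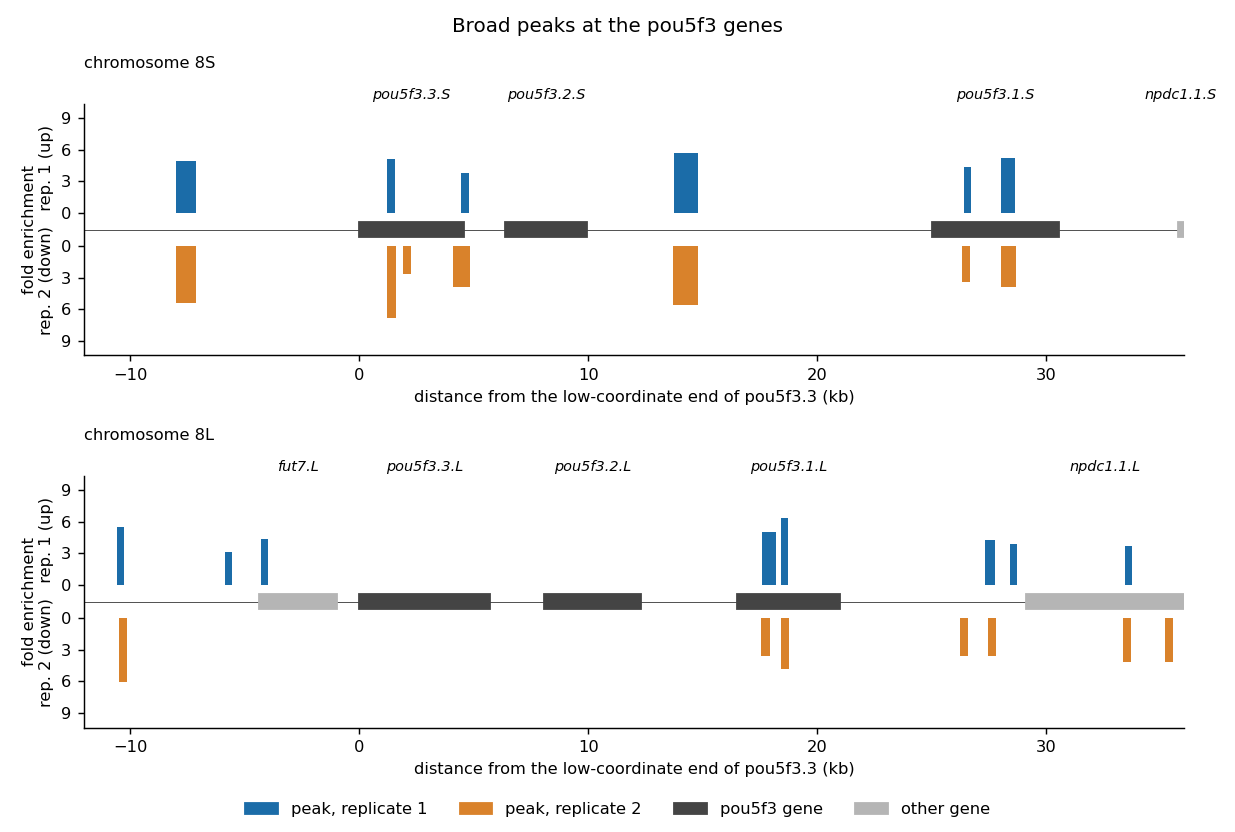
Peaks at the pou5f3 genes on 8S (upper panel) and 8L (lower panel). The horizontal axis is the distance in kb from the low-coordinate end of pou5f3.3, the bars are peaks at their true width with fold enrichment as height, replicate 1 upwards and replicate 2 downwards, dark boxes are pou5f3 genes and grey boxes other genes. Both pou5f3.1 copies carry 2 peaks in each replicate, whereas pou5f3.3.L and pou5f3.2.L stand in a stretch without peaks.

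The egg-stored copy pou5f3.3 differed between the homeologues. The S copy, pou5f3.3.S (gene ID 108699883; 8S, 27577658 to 27582244; 4587 bp), held a peak that started at 27578895 in both lists. It ended at 27579218 in replicate 1, with a fold enrichment of 5.10 and a -log10 q of 5.998, and at 27579257 in replicate 2, with 6.87 and 12.1. Among the peaks of its own list it stood above 65.6% in replicate 1 and 82.9% in replicate 2 by fold enrichment. A further peak lay across the high-coordinate end of the gene, from 27582125 to 27582434 in replicate 1 (fold enrichment 3.77) and from 27581740 to 27582516 in replicate 2 (3.90). Replicate 2 alone had a weak peak from 27579584 to 27579932, with a fold enrichment of 2.61 and a -log10 q of 1.58. Peaks covered 9.68% of pou5f3.3.S in replicate 1 and 26.5% in replicate 2, a mean of 18.1% ± 11.9 (SD, n = 2), so the covered share was not well fixed by these replicates.

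The L copy, pou5f3.3.L (gene ID 397936; 8L, 2287556 to 2293268; 5713 bp), overlapped no peak. Its nearest peak was 3979 bp below the gene in replicate 1, inside fut7.L, and 10153 bp below it in replicate 2. Of the protein-coding genes of 2 to 10 kb, 12.7% and 4.76% were at least as far from a peak in the same lists. On the other side, the first peak was 11865 and 11826 bp away, inside pou5f3.1.L.

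The pou5f3.2 gene, which the study followed as a gene of a ZGA factor, had no peak in either homeologue. The study counted it among genes whose promoters carry the histone mark H3K4me3 at all stages examined. For that group it reported higher promoter accessibility before ZGA than for its other groups. That was a signal over the promoters of a gene group, and is a measure unlike the peak calls used here. Around pou5f3.2.S (gene ID 108699882; 8S, 27584027 to 27587612; 3586 bp), the nearest peak was 1592 bp below the gene in replicate 1 and 1510 bp below it in replicate 2. This is the peak across the end of pou5f3.3.S. Above the gene, the next peak was 3772 and 3762 bp away. Around pou5f3.2.L (gene ID 379522; 8L, 2295625 to 2299844; 4220 bp), the nearest peak was 5289 and 5250 bp above the gene, and the next one below was 12048 and 18222 bp away. In the size class, 25.1% and 32.6% of genes were at least as far from a peak as pou5f3.2.S, and 9.17% and 13.7% at least as far as pou5f3.2.L. With windows of 5 kb on each side of a gene, pou5f3.2.S had peaks in both lists, among them those of pou5f3.3.S, and pou5f3.2.L still had none.

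The pou5f3.1 gene had 2 peaks inside the gene in each homeologue and each replicate. In pou5f3.1.S (gene ID 108699884; 8S, 27602654 to 27608214; 5561 bp), one peak ran from 27604042 to 27604351 in replicate 1 and from 27603985 to 27604333 in replicate 2, with a fold enrichment of 4.36 and 3.42. The other started at 27605689 in both lists and ended at 27606305 in replicate 1 and at 27606344 in replicate 2, with a fold enrichment of 5.24 and 3.88. In pou5f3.1.L (gene ID 397784; 8L, 2304047 to 2308547; 4501 bp), one peak ran from 2305134 to 2305752 in replicate 1 and from 2305095 to 2305501 in replicate 2, with a fold enrichment of 5.03 and 3.58. The other started at 2305968 in both lists and ended at 2306285 in replicate 1 and at 2306316 in replicate 2, with a fold enrichment of 6.37 and 4.86.

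All of these peaks recurred, and 2 or more peaks overlapping a gene in both replicates were found for 11.7% of the size class. This held for pou5f3.1.S, pou5f3.1.L and pou5f3.3.S. Peaks covered 17.4% ± 0.992 of pou5f3.1.S and 18.8% ± 2.84 of pou5f3.1.L (SD, n = 2 each), values that overlapped between the homeologues. At least as much of the gene was covered in 8.26% and 6.31% of the size class for pou5f3.1.S, and in 4.43% and 7.90% for pou5f3.1.L. Along the gene, the low-coordinate peak lay at a like place in both homeologues, starting 1388 and 1331 bp from the gene end in pou5f3.1.S and 1087 and 1048 bp in pou5f3.1.L. As a share of gene length this was 24.96% and 23.9% in pou5f3.1.S, and 24.2% and 23.3% in pou5f3.1.L. The other peak started at 54.6% of the length of pou5f3.1.S and at 42.7% of the length of pou5f3.1.L, the same in both replicates. Whether the peaks stand on matching sequence was not determined, since no genome sequence was used here.

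**Figure D2:**
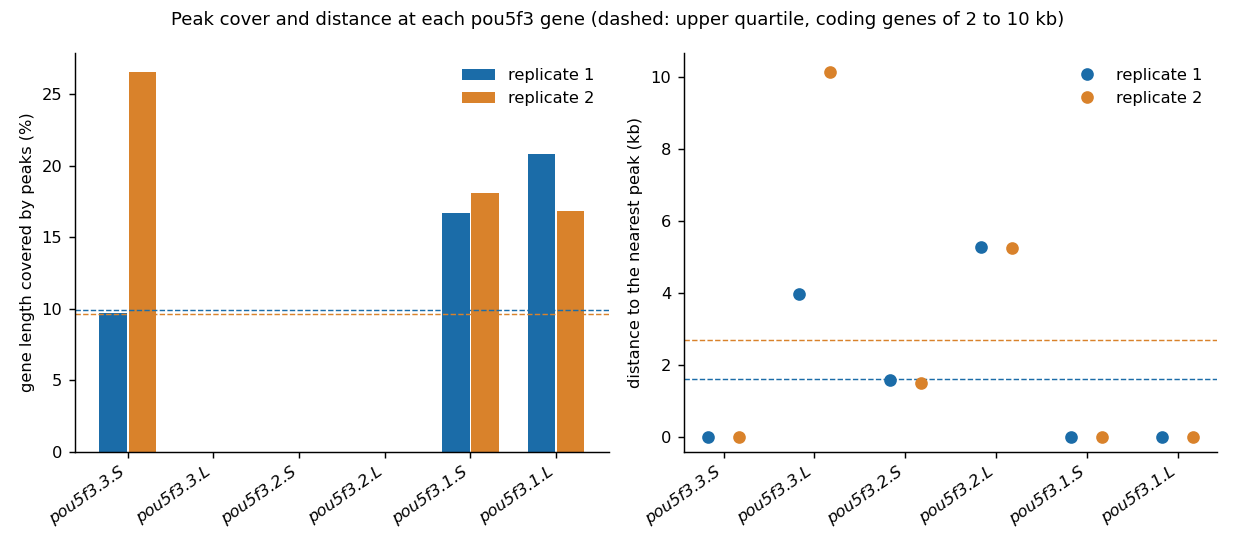
Left, share of each pou5f3 gene covered by peaks (%, bars); right, distance in kb from each gene to its nearest peak (points, 0 where a peak overlaps the gene), for replicate 1 (blue) and replicate 2 (orange). Dashed lines are the upper quartile of protein-coding genes of 2 to 10 kb in the same list. Cover of pou5f3.1.S and pou5f3.1.L was above that line in both replicates, and both L genes without a peak lie above it in the right plot.

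Over the whole set, replicate 1 listed 6 peaks at the pou5f3 genes and replicate 2 listed 7, and 6 in each overlapped a peak of the other list. Their fold enrichment ran from 3.77 to 6.37 in replicate 1, with a median of 5.07, and from 2.61 to 6.87 in replicate 2, with a median of 3.88. These medians were above that of the whole list in replicate 1 and below it in replicate 2. Added over the 3 genes, peaks covered 9.98% and 16.2% of the S copies, against 6.49% and 5.24% of the L copies. Mean cover per protein-coding gene of 2 to 10 kb was 6.20% and 5.76%. Peaks covered 444 and 1217 bp of pou5f3.3.S and none of pou5f3.3.L. They covered 927 and 1005 bp of pou5f3.1.S, against 937 and 756 bp of pou5f3.1.L.

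The spaces between the genes also differed. On both chromosomes the order in rising coordinates was pou5f3.3, pou5f3.2, pou5f3.1, npdc1.1 and entpd2. Between pou5f3.2 and pou5f3.1 lay 15041 bp on 8S and 4202 bp on 8L, a ratio of 3.58, while the space between pou5f3.3 and pou5f3.2 was 1782 bp on 8S and 2356 bp on 8L. The long S space held 1 peak, the widest recurring one within 50 kb of the S genes. It ran from 27591385 to 27592458 (1074 bp, fold enrichment 5.69) in replicate 1 and from 27591375 to 27592429 (1055 bp, 5.59) in replicate 2. Peaks at least as wide made up 1.12% of the list in replicate 1 and 1.74% in replicate 2. It was picked as the widest of its window, so a small share is in part set by the choice. The shorter L space held no peak in either replicate.

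The 2 L genes without peaks lay together in 1 stretch of 21518 bp, from 2283577 to 2305094, in which neither list had a peak. When both lists were pooled, 3.80% of the 385401 spaces between peaks on assembled chromosomes were at least as long, and such spaces made up 15.6% of these chromosomes. In replicate 1 by itself the stretch was 21557 bp. In replicate 2 by itself it was 27692 bp and also held fut7.L. The stretch around pou5f3.2.S measured 8858 bp in the pooled lists, a length reached by 25.1% of spaces. Such spaces made up 55.1% of these chromosomes.

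From the low end of pou5f3.3 to the high end of pou5f3.1, peaks covered 8.62% and 11.6% of the 30557 bp on 8S, against 4.46% and 3.60% of the 20992 bp on 8L. S exceeded L by 4.16 percentage points in replicate 1 and by 8.01 in replicate 2. Whole chromosomes differed in the same direction by less: 8S exceeded 8L by 0.660 and 0.754 points. S and L were read in the same 2 libraries, and a sign-flip permutation test, exact and two-sided, over 2 replicates cannot give a p-value below 0.5, so no test was made.

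The surroundings were followed for 50 kb on each side. On 8S (27527658 to 27658214; 130557 bp), 18 peaks were listed in replicate 1 and 20 in replicate 2, and they covered 7.02% and 7.75%. On 8L (2237556 to 2358547; 120992 bp), 20 and 19 peaks were listed and covered 6.05% and 6.13%. The S window was covered more in both replicates, by 0.970 and 1.62 percentage points (mean 1.29 ± 0.458, SD, n = 2). These windows include the stretch from pou5f3.3 to pou5f3.1, where S also exceeded L. Of the 9171 and 10116 bp covered in the S window, 2635 and 3549 bp lay in that stretch. In the L window it held 937 and 756 of 7325 and 7417 bp. The flanks outside that stretch have the same length on both chromosomes. The covered length left for them was slightly larger on S in replicate 1 and slightly larger on L in replicate 2. The S excess of the windows thus lay mainly in the stretch from pou5f3.3 to pou5f3.1, and the flanks showed no S excess common to both replicates. The size of the window difference depended on the flank, with a mean of 3.64 points for flanks of 25 kb and 1.07 for flanks of 100 kb. Peaks were not denser in the S window: there were 13.8 and 15.3 per 100 kb, against 16.5 and 15.7 in the L window. Whole chromosomes went the other way, with 8S above 8L by 1.41 and 1.45 peaks per 100 kb. Peaks in the S window were wider, with a median of 490 and 414 bp, against 317 and 349 bp in the L window. Peaks of the smallest width that a list contained made up 27.8% and 30.0% on 8S, against 45.0% and 57.9% on 8L, and 38.1% and 37.7% of the whole lists.

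**Figure D3:**
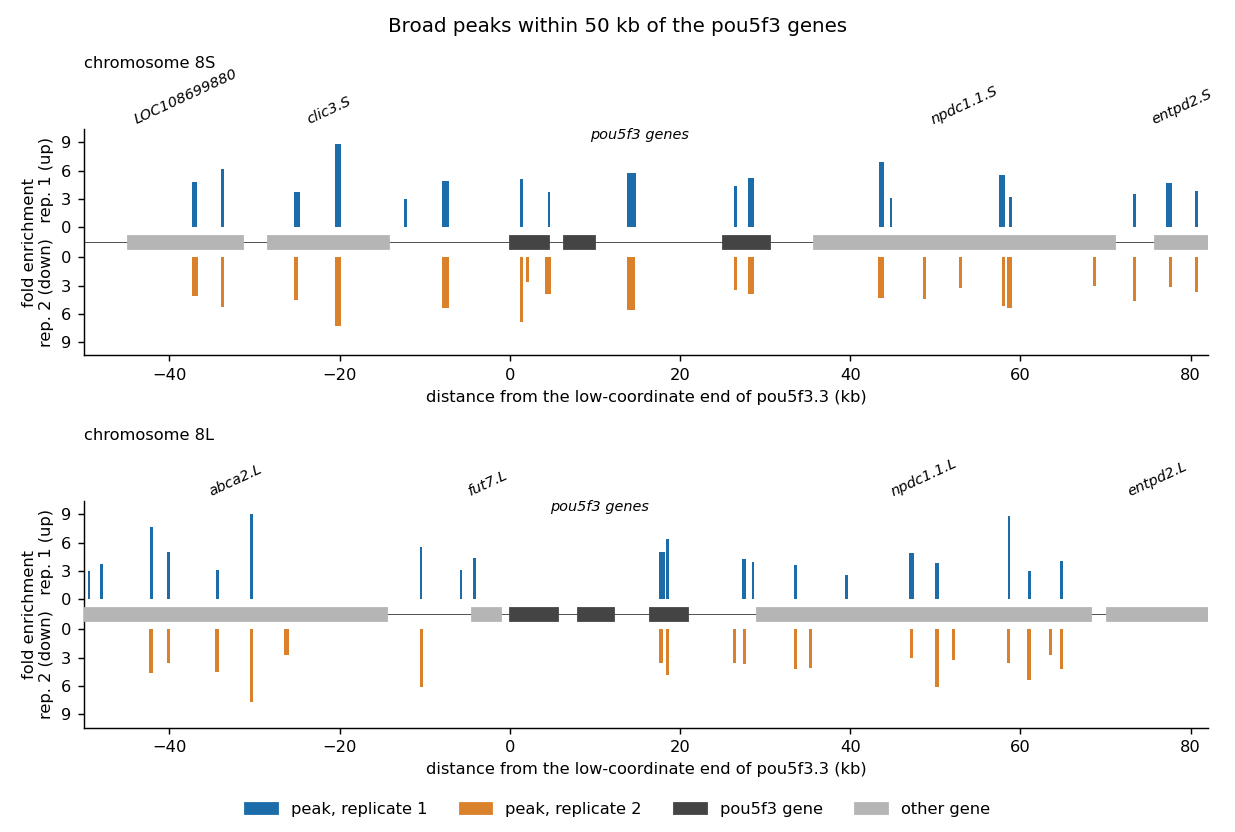
Peaks within 50 kb of the pou5f3 genes on 8S (upper panel) and 8L (lower panel), drawn as fold enrichment against distance in kb from the low-coordinate end of pou5f3.3, replicate 1 upwards and replicate 2 downwards. Boxes are genes, with the pou5f3 genes dark; the highest recurring peak of each panel lies in clic3.S or abca2.L in both replicates.

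Both windows were covered more than most windows of the genome. The pou5f3 windows were placed around genes, whereas the others were taken without regard to genes, and this was not accounted for. Mean cover per gene over all genes was 6.42% in replicate 1 and 6.01% in replicate 2. Among all consecutive windows of equal length on assembled chromosomes, cover had a median of 4.84% and 4.53% for the S length and 4.85% and 4.52% for the L length. The S window was covered more than 90.1% and 96.0% of 20988 windows, and more than 82.7% and 91.3% of those on 8S. The L window was covered more than 75.9% and 81.6% of 22649 windows, and more than 76.4% and 83.4% of those on 8L.

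**Figure D4:**
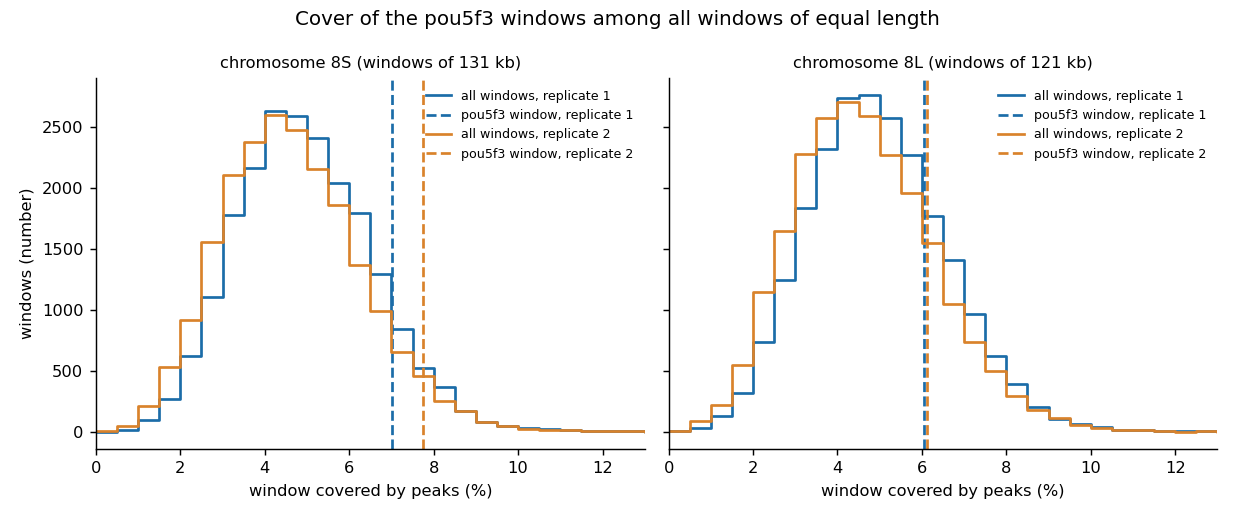
Number of windows against the share of the window covered by peaks (%), for all consecutive windows of the length of the pou5f3 window on 8S (left) and 8L (right), in replicate 1 (blue) and replicate 2 (orange). Dashed lines mark the pou5f3 windows, at 7.02% and 7.75% on 8S and at 6.05% and 6.13% on 8L, in the upper part of the distributions.

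Most peaks of the windows were found in both lists. On 8S, 16 of 18 peaks of replicate 1 (88.9%) and 16 of 20 of replicate 2 (80.0%) overlapped a peak of the other list, against 14 of 20 (70.0%) and 14 of 19 (73.7%) on 8L. Over all peaks this share was 66.6% and 77.8%. Of the recurring peaks of replicate 1, 6 of 16 on 8S (37.5%) and 5 of 14 on 8L (35.7%) had exactly the same start or end in replicate 2, against 43.8% of all recurring peaks.

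Recurring peaks were ordered by the geometric mean of their fold enrichment in the 2 lists, and the first on each chromosome lay in a flanking gene. On 8S, the highest was in clic3.S, a member of the chloride intracellular channel family, from 27557171 to 27557802 in replicate 1, with a fold enrichment of 8.77 and 7.27 in the 2 lists. The peak of pou5f3.3.S (5.10 and 6.87) came next by this mean, followed by one in LOC108699880 from 27543709 to 27544094 with 6.12 and 5.23. Their order was the opposite in replicate 1, where a peak in npdc1.1.S (6.85) also exceeded both. In that list the pou5f3.3.S peak was also below those between pou5f3.2.S and pou5f3.1.S (5.69), in npdc1.1.S from 27635108 (5.56) and in pou5f3.1.S (5.24). On 8L, the highest was in abca2.L, a lipid transporter gene, from 2256988 to 2257347 in both lists, with 9.01 and 7.64. Next by this mean were a peak in the same gene from 2245243 to 2245580 with 7.65 and 4.66, and one between abca2.L and fut7.L, from 2276983 to 2277292 with 5.54 and 6.08. Behind the first, the order differed between the lists: a peak in npdc1.1.L came second in replicate 1 with 8.81, and had 3.60 in replicate 2. The widest recurring peak on 8L, by its width in replicate 1, ran from 2334407 to 2335038 in replicate 1, inside npdc1.1.L, with a fold enrichment of 4.92 and 3.01.

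The flanking genes npdc1.1 and entpd2 were the ones with both homeologues within 50 kb of the cluster, and each copy had peaks in both replicates. Both are longer than the pou5f3 genes, and 73.2% of all genes had a peak within 1 kb in both replicates. The npdc1.1 gene, named for a role in neural proliferation and differentiation, stands next to pou5f3.1 and had 4 and 6 peaks in npdc1.1.S, against 7 and 9 in npdc1.1.L. Peaks covered 5.57% and 7.34% of npdc1.1.S, against 7.15% and 8.69% of npdc1.1.L, so here the L copy was covered more in both replicates. The ectonucleotidase gene entpd2 had 2 peaks in each copy and each replicate. On 8L, the fucosyltransferase gene fut7.L, between abca2.L and pou5f3.3.L, had 1 peak of the smallest width in replicate 1 (fold enrichment 4.38) and none in replicate 2. The gene table lists no gene under the symbol fut7 or abca2 on 8S.

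Pairs of homeologues gave a frame for the S and L states. Among 1287 protein-coding pairs with both copies of 2 to 10 kb, both copies had a peak within 1 kb in both replicates in 35.4%, as pou5f3.1 did. The S copy had one in both replicates and the L copy in none in 12.1%, as pou5f3.3 did, and the reverse was seen in 10.3%. No peak in either copy or replicate, as at pou5f3.2, was the state of 7.54% of pairs.

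Other POU genes and genes of early factors were set beside the pou5f3 genes. The POU list took every symbol beginning with pou and a digit, which includes pou2af1, a coactivator of POU factors. Of 19 such genes other than pou5f3, 13 had a peak within 1 kb in both replicates, 1 in a single replicate and 5 in none. The early factor list held 40 genes under 23 names, among them sox2, sox3, vegt, foxh1, the Nanog-like ventx genes, myc and lin28. Of these, 28 had a peak in both replicates, 5 in one and 7 in none. These shares, 68.4% and 70.0% with a peak in both, stand beside 73.2% of all genes and 57.7% of the size class of 2 to 10 kb. No peak in either replicate was the state of 26.3% and 17.5%, beside 16.9% of all genes and 24.2% of the size class. Median length was 4148 bp for the other POU genes and 4486 bp for the early factor genes. Single genes range from 1190 to 191659 bp, and longer genes have more room for peaks.

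**Figure D5:**
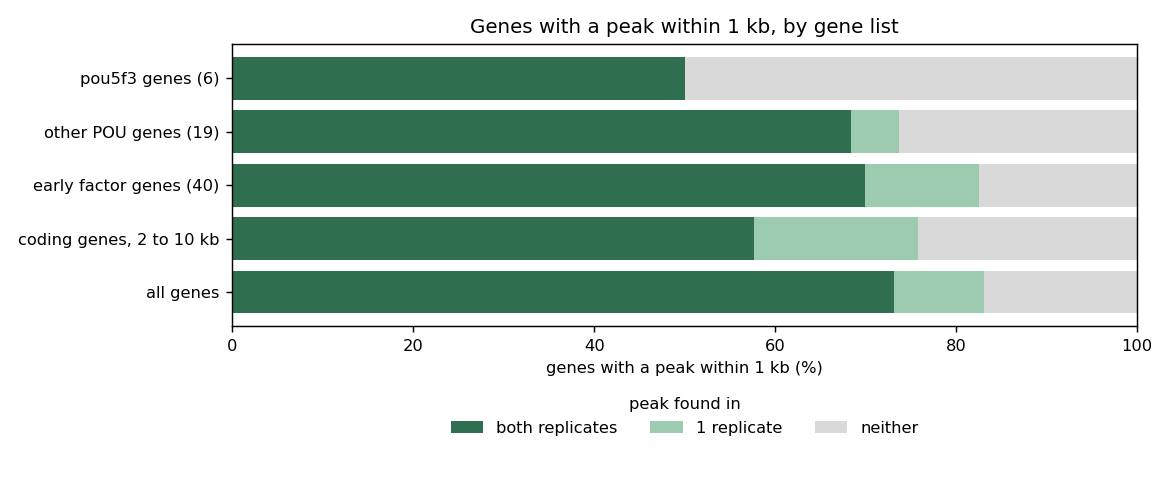
Share of genes (%) with a peak within 1 kb in both replicates, in 1 replicate or in neither, for the 6 pou5f3 genes, 19 other POU genes, 40 early factor genes, protein-coding genes of 2 to 10 kb and all genes on assembled chromosomes. The pou5f3 genes divide into equal parts with and without a peak, and none had a peak in 1 replicate alone.

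By the same mean, the recurring peaks of highest fold enrichment in the POU list were in pou2f1.L (16.5 and 13.8 in the 2 replicates), the gene of the widely expressed octamer factor Oct-1, at pou4f1.L (10.5 and 11.4), a gene of sensory neurons, and in pou2f3.S (10.13 and 10.3). In the early factor list they were in lin28b.S (15.7 and 11.1), which encodes an RNA-binding protein that blocks let-7 processing, at ventx1.2.L (11.9 and 14.7), and in klf2.L (12.04 and 11.5). All were above the highest value at a pou5f3 gene in the same list, 6.37 in replicate 1 and 6.87 in replicate 2. The named peaks were picked as the highest of their gene lists, so this order is in part set by the choice. Gene length was not taken into account. Besides pou5f3.3, a peak in both replicates at one homeologue and in none at the other was seen for pou3f1, where the L copy had it (fold enrichment 6.61 and 6.99), and for ventx2.2, where the S copy had it. At ventx2.2.S the peaks of the 2 lists did not overlap, so no recurring peak was found there.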

How the data were processed

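CATaDa reads of 2 replicates were run by the authors through the damidseq pipeline, with alignment by bowtie2 to assembly v10.1. MACS 3.0.1 then called broad peaks in each replicate separately. A control library and the caller's cutoff are not given in the sources used here. The deposited lists give each peak's start and end, converted here to count from 1. They also give the authors' fold enrichment (a ratio of pileup to background), the authors' -log10 p and -log10 q, and a deposited score derived from q; p and score were not used. The lowest -log10 q was 1.01 and 1.00. Nothing was renormalised. Depth is unknown.

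Overlaps of at least 1 bp were counted with python 3.11.15, numpy 2.4.6 and pandas 2.3.3. Gene names and positions came from the RefSeq gene table of the same assembly. Genes were taken with 1 kb on each side and the cluster with 50 kb on each side. A peak recurred when it overlapped one of the other list. Chromosome length was the last coordinate seen. Overlap counting was tested on simulated data. Named peaks were those at a pou5f3 gene, its nearest peaks on each side, and per window the 3 strongest recurring peaks, by the geometric mean of their fold enrichment in both lists, and the widest. In the POU and early factor lists, the 3 genes with the strongest recurring peak and pairs with a peak in both replicates at 1 copy and none at the other were named. The early factor list held 24 names, of which ventx3.1 matched no symbol. The members and lists were chosen with earlier results of these data known. No test was made, since there is 1 group of 2 replicates. Alternatives were peaks limited to a fold enrichment of at least 3 or a -log10 q of at least 2, other margins and flanks, peak midpoints, an overlap of 50%, another stretch for S against L and omission of each replicate.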

Additional observations from a re-analysis of the deposited data

How the results depend on the processing

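The 3 pou5f3 genes with a peak in both replicates stayed at 3 under every alternative except windows of 5 kb, which gave 4. At 5 kb, pou5f3.2.S had a mean of 3.50 peaks and pou5f3.3.L 0.5. Those counted for pou5f3.2.S were the peaks of pou5f3.3.S and the peak between pou5f3.2.S and pou5f3.1.S. Cover averaged over both 50 kb windows was 6.74%. It was 6.35% with a -log10 q of at least 2, 6.35% with a fold enrichment of at least 3 (both settings removed the same peaks there) and 5.84% with flanks of 25 kb. S minus L, 1.29 percentage points, was 3.64 with flanks of 25 kb, 1.07 with flanks of 100 kb, and 1.59 between clic3 and entpd2. Why it changed with the flank was not tested. The mean recurring share of 77.9% was 83.3% with either threshold, 71.8% with flanks of 25 kb and 72.4% with flanks of 100 kb; the cause was not tested. Omitting each replicate gave 3 pou5f3 genes each time, 16 to 17 POU genes, 29 to 32 early factor genes, 6.54% to 6.94% cover, 0.970 to 1.62 points for S minus L and a mean distance to the nearest peak of 1810 to 2819 bp. Of 42 recomputed main values, those with a replicate omitted included, 34 stayed within 1.5 times the value given (counts of genes) or within 1 SD between replicates (other values), and none changed sign. For cover, S minus L and distance, omitting a replicate of 2 always leaves the mean within 1 SD, so those values had to stay. S minus L was taken within each replicate and not tested, and with a single group no fit with a replicate block could be made. Peak lists without counts limit what an absent peak can show.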

Other observations

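The pou5f3 genes share chromosomes 8S and 8L with 4 other POU genes, pou3f4.S, pou4f4.S, pou3f4.L and pou4f4.L, and none of these had a peak within 1 kb in either replicate. Of the 10 POU genes on these chromosomes, 3 had a peak in both replicates and 7 in none, against 13 and 1 of the 15 POU genes elsewhere. The share with a peak in both was 57.7% of protein-coding genes of 2 to 10 kb and 73.2% of all genes, and the share with none was 24.2% and 16.9%. The share among all genes of 8S and 8L was not computed. Windows of 130557 bp held a median of 17 and 15 peaks on 8S, against 15 and 13 over all assembled chromosomes. Windows of 120992 bp held 14 and 12 on 8L, and 14 and 12 over all. The POU genes on 8S and 8L measure 1271 to 5713 bp, against 1331 to 191659 bp for the others. Below the size class are pou3f4.S (1271 bp) and pou4f4.S (1519 bp), and pou3f1.S (1331 bp) among the others. The grouping by chromosome was chosen after the values were seen and was not tested. The part of gene length in it was not tested either.

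The ventx genes, which also form a tandem cluster and encode relatives of Nanog, also included genes with and without peaks. Of the 10 listed genes on 7S and 7L, 3 had a peak in both replicates, 1 in a single replicate and 6 in none, beside the 57.7% with a peak in both and 24.2% with none in the size class of 2 to 10 kb. At ventx2.2.S, counted among the 3, the peaks of the replicates did not overlap each other. The ventx genes measure 1770 to 4712 bp. Both copies of ventx1.2 had a peak within 1 kb, with a fold enrichment of 6.91 and 5.36 at ventx1.2.S and of 11.9 and 14.7 at ventx1.2.L. In replicate 1 these peaks lay outside the genes, beyond their high-coordinate ends. Neither copy of ventx1.1 or ventx3.2 had a peak within 1 kb.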
